A study of Vitis vinifera with 66 samples.

Results

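The genes described here are 5 genes on the route from plastid isoprenoids to carotenoid-derived aroma, picked by their IDs from the 29688 gene rows of the count table: DXS1 (VIT_05s0020g02130), PSY1 (VIT_04s0079g00680), PSY2 (VIT_12s0028g00960), CCD1 (VIT_13s0064g00840) and CCD4a (VIT_02s0087g00910). The table holds IDs only, so these names came with the list of IDs and could not be checked against a sequence. The chromosome number within each ID places DXS1 on chromosome 5, PSY1 on 4, PSY2 on 12, CCD1 on 13 and CCD4a on 2. All 5 passed the filter on low counts.

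RNA was measured in whole berries of potted Sauvignon Blanc, a white wine grape, in 66 libraries, 3 for each of 22 groups. FH vines were waterlogged at budbreak in spring and met drought and a heatwave in summer, H vines met the drought and the heatwave only, F vines were waterlogged only, and C vines were the controls. All vines were of 1 clone on the rootstock K5BB and grew in plastic tunnels, with H and FH in one tunnel and C and F in the other, so the summer stress and the tunnel cannot be told apart. The time points were T0, at 46 days after anthesis (DAA) and with C and F libraries only, T1 (55 DAA, soil at 30% of field capacity in H and FH, before the heat), T2 (59 DAA, during heating set 5 °C above the other tunnel), T3 (61 DAA, the end of the heat), T4 (70 DAA, after recovery) and T5 (74 DAA, when the control grapes were ripe).

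Plastids build isoprenoids from pyruvate and glyceraldehyde phosphate, and deoxyxylulose phosphate synthase (DXS) makes the entry step. Phytoene synthase (PSY) then joins geranylgeranyl diphosphate into phytoene and so commits carbon to carotenoids. Carotenoid cleavage dioxygenases (CCD) cut carotenoids into apocarotenoids, among them the norisoprenoids that give floral and fruity notes to grapes and wine, and the related NCED enzymes cut them toward the hormone abscisic acid. Grape berries are known to carry most carotenoid before ripening begins and to lose it as they ripen.

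Library totals ran between 15927671 and 24150978 counts (median 19168492), and levels are given below in CPM, the read count scaled to a common library size with TMM factors. CPM is not corrected for gene length, so levels are compared within a gene only. The members' counts per library ran between 394 and 6307 for DXS1, 37 and 1759 for PSY1, 297 and 1701 for PSY2, 5605 and 14259 for CCD1, and 9 and 188 for CCD4a, the gene with the least depth. A gene was called different when edgeR's quasi-likelihood test gave an adjusted p under 0.05 over the 19625 genes tested and a fold of at least 1.5. Each library was also given a ripening score from 11093 other genes, those called between T0 and T5 in C berries. The score sets their expression on a line from the C mean at T0 (score 0) to the C mean at T5 (score 1). Libraries stood apart from their group in this score. The lowest score at T4 was 0.692 in FH replicate 2, against 0.885 and 0.878 in the other FH libraries, and C replicate 1 scored only 0.394 at T2 and 0.55 at T3. In whole berries, fewer cells of a type and less RNA per cell cannot be told apart.

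DXS1 and PSY1, the entry enzyme and a phytoene synthase, lost most of their transcript as the berries ripened. In C berries DXS1 stood at 25.8, 26.9 and 17.4 CPM at T5, against 305, 312 and 306 CPM at T0. The lowest T0 library was far above the highest T5 library. DXS1 was 13.2-fold lower (log2 fold change -3.72 ± 0.48, SE, adjusted p = 9.2e-09). PSY1 in C berries had 3.66, 4.04 and 2.91 CPM at T5, against 88.4, 72.1 and 65.1 CPM at T0. Here too the libraries did not overlap, as was so for 75.5% of all genes, and PSY1 was 21.2-fold lower at T5 (log2 fold change -4.41 ± 0.71, adjusted p = 7e-07).

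Both genes were also called lower at the end of the season in the other treatments. In F berries, DXS1 was 12.5-fold lower at T5 than at T0 and PSY1 26.7-fold lower (adjusted p = 1.9e-08 and 3.5e-07). H and FH berries have no T0 libraries here, so their season runs over T1 to T5 and is not on the same span. H berries had 31.2 ± 19.1 CPM of DXS1 at T5, against 117 ± 7.71 CPM at T1 (SD, n = 3 each), a log2 fold change of -1.91. FH berries had 25.4 ± 7.11 CPM at T5, against 79.2 ± 22.3 CPM at T1, a log2 fold change of -1.64. PSY1 changed by -3.25 in H berries and by -2.91 in FH berries on the log2 scale over that span. Without any 1 library these 8 falls of DXS1 and PSY1 kept their call, with adjusted p up to 0.025 for DXS1 and 0.0068 for PSY1.

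Of the other members only CCD4a, and only in H berries, was called over the season. Over the whole season 9 of 20 tests of the members were called, all of them lower at T5, where 48% of all tests over all genes were called, so the members' share was close to that of all genes. By treatment, the share of all genes called was 56.6% in C and 53.8% in F berries (T5 over T0), and 38.7% in FH and 42.9% in H berries (T5 over T1). The 9 calls were the 8 of DXS1 and PSY1 and 1 of CCD4a in H berries. In C berries the log2 fold change between T5 and T0 was 0.41 for PSY2 (95% interval -0.26 to 1.08), -0.26 for CCD1 (-0.68 to 0.16) and 0.28 for CCD4a (-0.63 to 1.18). None of these passed the test. PSY2 in H berries, with 0.59 for T5 over T1, was called (1.23) without H replicate 3 of T1.

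**Figure D1:**
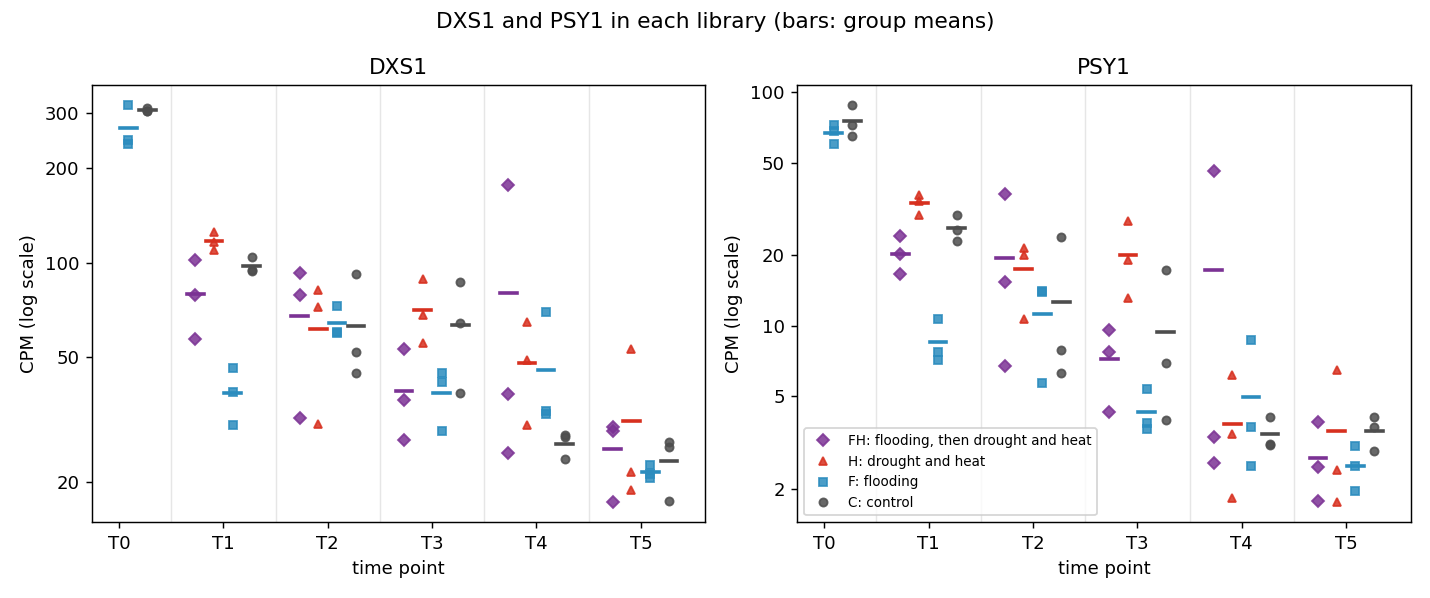
DXS1 (left) and PSY1 (right) in each of the 66 libraries, in CPM on a log axis, by time point, with 1 symbol per library, treatments in separate columns and a bar at each group mean. Both genes are highest at T0 and have their lowest group mean at T5, and FH replicate 2 at T4 (177 CPM of DXS1 and 45.8 CPM of PSY1) stands above the rest of its time point.

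The order of the 22 groups shows the same course. For DXS1 the highest groups were C at T0 (308 ± 3.82 CPM), F at T0 (268 ± 44.3 CPM) and H at T1 (117 ± 7.71 CPM), and the lowest was F at T5 (21.5 ± 1.08 CPM), a range of 14.3-fold between group means. PSY1 ranged 30.1-fold, with C at T0 highest (75.2 ± 12.0 CPM) and F at T5 lowest (2.5 ± 0.551 CPM). Of the 21 pairs of neighbours in each order, 19 overlapped in their libraries for either gene. The neighbours without overlap were F at T0 and H at T1, and H at T1 and the group after it. Single libraries of lower groups still lay above all H libraries of T1. FH replicate 2 of T4 had 177 CPM of DXS1 and 45.8 CPM of PSY1, and FH replicate 1 of T2 had 36.6 CPM of PSY1.

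DXS1 and PSY1 also varied together between single libraries. Over the 22 group means the correlation of their log2 levels was 0.95, and within groups, after removing the group means, it was 0.91 over the 66 libraries. PSY1 and PSY2, which encode the same enzyme step, had -0.28 over group means and 0.16 within groups. PSY2 and CCD1 gave 0.71 and 0.53. CCD4a had its highest value with PSY1 over group means, 0.54, and 0.12 or less with every member within groups. These are descriptions over libraries that share normalization and a common ripening course, and no test was attached to them. The correlations include FH replicate 2 of T4 (177 CPM of DXS1 and 45.8 CPM of PSY1) and were not computed without it.

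Since length cancels in a ratio of 2 genes set against its own starting value, the balance of the phytoene synthases could be followed. Relative to C berries at T0, the log2 ratio of PSY2 to PSY1 was 1.33 ± 0.15 in C berries at T1, 4.29 ± 1.17 at T2 and 4.84 ± 0.22 at T5 (SD, n = 3 each). At T5 it was 5.56 ± 0.32 in FH berries, 5.31 ± 0.68 in H berries and 5.52 ± 0.33 in F berries. Between T0 and T1 the treatments parted, with 2.50 ± 0.65 in FH, 1.09 ± 0.75 in H and 3.82 ± 0.64 in F berries at T1. The F libraries (3.12 to 4.38) lay above the C libraries (1.16 to 1.45). The ratio of PSY1 to DXS1 moved far less, with -0.66 ± 0.12 in C berries at T5 on the same scale.

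**Figure D2:**
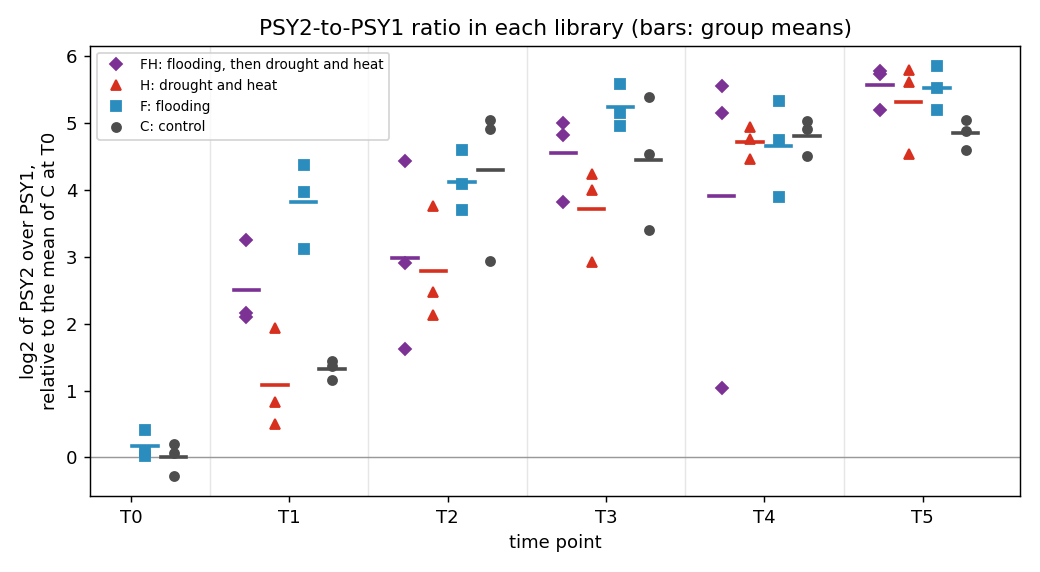
Log2 ratio of PSY2 to PSY1 in each library, relative to the mean of C berries at T0, by time point and treatment, with bars at the group means. The ratio is near 0 at T0 and lies between 4.53 and 5.84 in the 12 libraries of T5, while at T1 the F libraries are above the C libraries and at T4 FH replicate 2 (1.04) is far below the others.

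Step by step, the members changed at different times. Over consecutive time points 13 of 90 tests were called, 4 higher and 9 lower at the later time, where 9.35% of all tests were called. DXS1 fell early. In C berries it had 94.7, 104 and 94.2 CPM at T1, against 305, 312 and 306 CPM at T0, a log2 fold change of -1.65 ± 0.44 (adjusted p = 0.0061), in a step that called 16.5% of all genes. In F berries it had 46.2, 30.3 and 38.8 CPM at T1, against 319, 246 and 239 CPM at T0, and the log2 fold change was -2.80 ± 0.46 (adjusted p = 3.3e-06), where 39.6% of all genes were called. PSY1 fell by 2.98 on the log2 scale over that interval in F berries (adjusted p = 0.00025), and its change in C berries, -1.52, was not called (adjusted p = 0.072, 0.047 with DESeq2). CCD4a fell over the same interval in F berries, at 3.66, 1.21 and 1.5 CPM at T1, against 4.20, 6.23 and 6.21 CPM at T0 (log2 fold change -1.38, adjusted p = 0.014). Its call was lost without F replicate 2 or 3 of T1 (adjusted p = 0.089 and 0.071).

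PSY2 and CCD1 rose in C berries one step later than DXS1 fell. In C berries PSY2 had 66.4, 74.2 and 85.2 CPM at T2, against 21.7, 29.3 and 20.7 CPM at T1. Every T2 library was above every T1 library, and the rise was 3.15-fold (log2 fold change 1.65 ± 0.34, adjusted p = 0.00056). In that step 19.2% of all genes were called and 40.3% had groups without overlap. CCD1, which acts on a wide range of carotenoids and apocarotenoids in plants, had 695, 612 and 678 CPM at T2 in C berries, against 282, 504 and 463 CPM at T1, a 1.59-fold rise (log2 fold change 0.67 ± 0.21, adjusted p = 0.018). Without C replicate 1 of T1, its lowest library, the CCD1 change was 0.45 and not called (adjusted p = 0.17). In F berries PSY2 already averaged 43.6 ± 9.9 CPM at T1, and its change at T2 (0.62, adjusted p = 0.3) was not called. In H berries PSY2 had 52.3, 31.7 and 43.4 CPM at T2 and rose to 111, 89.7 and 77.1 CPM at T3 (log2 fold change 1.12 ± 0.34, adjusted p = 0.022, with 9.61% of all genes called). That step lost its call without H replicate 2 or 3 of T2 or H replicate 1 of T3, with adjusted p up to 0.14. The earlier step of PSY2 in H berries, T2 over T1, was not called (0.54, adjusted p = 0.22), but was 1.18 and called without H replicate 3 of T1.

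PSY2 and CCD1 were highest in the middle of the series. PSY2 was highest in H at T3 (92.6 ± 17.1 CPM), C at T2 (75.3 ± 9.44 CPM) and F at T2 (67.1 ± 18.5 CPM), and lowest in C at T1 (23.9 ± 4.73 CPM). CCD1 had the same highest groups in the same order, with 708 ± 40.2, 662 ± 43.7 and 655 ± 73.7 CPM, and was lowest in C at T5 (404 ± 11.3 CPM). The whole range of CCD1 was 1.75-fold and that of PSY2 3.87-fold, and all 21 neighbours in either order overlapped. After T3, PSY2 in H berries fell to 33.6, 20.1 and 49.2 CPM at T4 (log2 fold change -1.43 ± 0.34, adjusted p = 0.0026), where 16.6% of all genes were called. CCD1 changed by -0.57 over that step, with an adjusted p of 0.048 but a fold under 1.5. PSY1 fell in H berries over the same days, to 3.42, 1.82 and 6.17 CPM at T4, against 19.2, 13.2 and 28.1 CPM at T3 (log2 fold change -2.40 ± 0.66, adjusted p = 0.0084), and without H replicate 2 of T4 the adjusted p was 0.065. DXS1 in C berries fell by 1.25 on the log2 scale between T3 and T4 (adjusted p = 0.041, with 14.8% of all genes called). That call was lost without C replicate 1 or 3 of T3 or any of the 3 C libraries of T4, with adjusted p up to 0.24.

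CCD4a, of an enzyme family that acts on carotenoids inside the plastid, rose late in ripening in C berries. It had 7.40, 7.58 and 3.88 CPM at T5, against 1.20, 1.42 and 3.76 CPM at T4. Every T5 library was above every T4 library, and the rise was 2.95-fold (log2 fold change 1.56 ± 0.47, adjusted p = 0.04). In that step 3.89% of all genes were called and 35.9% had groups without overlap. The call held without C replicate 3 of T4 (log2 fold change 2.28), and was lost without any other of the 6 libraries, with adjusted p up to 0.21. Its highest groups were C at T5 (6.29 ± 2.09 CPM), F at T0 (5.55 ± 1.17 CPM) and C at T0 (5.19 ± 1.95 CPM), and its lowest were F at T3 (1.07 ± 0.157 CPM) and C at T3 (1.27 ± 0.373 CPM).

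**Figure D3:**
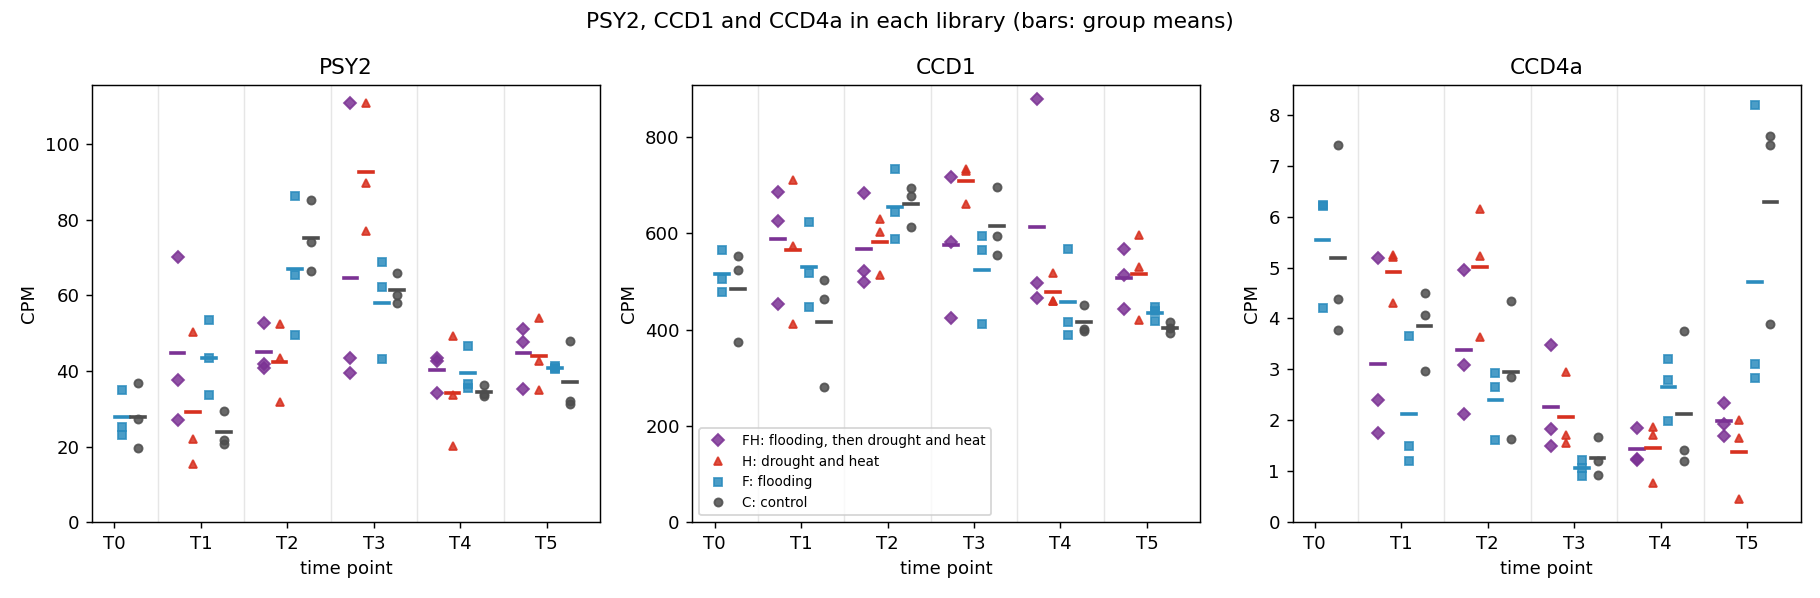
PSY2 (left), CCD1 (middle) and CCD4a (right) in each library, in CPM on linear axes from 0, by time point and treatment, with bars at the group means. PSY2 and CCD1 have their highest group means at T2 and T3. At T5 the 6 stressed libraries of CCD4a (0.458 to 2.35 CPM) lie below the 6 unstressed ones (2.83 to 8.20 CPM). The share of all genes for that pooled split was not computed. Groups at T5 did not overlap for 39.2% of all genes in H over C and 43.5% in FH over F.

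Under the summer stress the member with the lowest adjusted p was CCD4a, which was low at harvest. At T5 CCD4a had 2.01, 1.65 and 0.458 CPM in H berries, against 7.40, 7.58 and 3.88 CPM in C berries. No H library reached the lowest C library, and 39.2% of all genes had no overlap there. CCD4a was 4.54-fold lower in H (log2 fold change -2.18 ± 0.48, adjusted p = 0.0013), and leaving out any 1 library gave -2.56 to -1.78 with adjusted p up to 0.029. FH berries had 2.35, 1.69 and 1.93 CPM, against 3.10, 2.83 and 8.20 CPM in F berries. These groups did not overlap either, as was so for 43.5% of all genes, but the difference, -1.24 ± 0.47 on the log2 scale, missed the threshold (adjusted p = 0.053). It passed with DESeq2 (0.031), and without F replicate 1 or 2, the libraries nearest to the FH values (0.043 and 0.034).

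Averaged over both backgrounds, CCD4a was 3.28-fold lower under the summer stress at T5 (log2 fold change -1.71 ± 0.34, adjusted p = 9.3e-05), and the call held without any of the 12 libraries. FH berries were also lower than C berries, by 1.66 on the log2 scale (adjusted p = 0.0076, with 15.9% of all genes called). The effect was not shown to differ between flooded and unflooded vines (difference 0.94, 95% interval -0.39 to 2.27, adjusted p = 0.59). At T4, before the late rise, CCD4a was 1.43 ± 0.359 CPM in FH and 2.66 ± 0.62 CPM in F berries, and 1.45 ± 0.596 CPM in H and 2.12 ± 1.42 CPM in C berries, and the mean difference of -0.72 was not called (adjusted p = 0.26). Between T4 and T5 CCD4a was called in C berries only. It was not called in F (0.82, adjusted p = 0.31), H (-0.07, adjusted p = 0.98) or FH (0.48, adjusted p = 0.56). In H berries it was 1.37 ± 0.811 CPM at T5, against 4.92 ± 0.525 CPM at T1 (log2 fold change -1.83, adjusted p = 0.0016).

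The ripening score was also lower in the stressed groups at harvest. At T5 it was 0.919 ± 0.015 in FH, 0.873 ± 0.08 in H, 0.976 ± 0.007 in F and 1 ± 0.011 in C berries, and its part in the CCD4a difference was not tested. H replicate 3 had the lowest score at T5, 0.782, and the lowest CCD4a, and without it the H over C difference of CCD4a was -1.78 (adjusted p = 0.029). Within the groups of T4 and T5, the correlation of CCD4a with the score over 24 libraries was 0.29. It had the opposite sign within the groups of T1 to T3 (-0.52) and within all groups (-0.21). FH replicate 2 of T4, with the lowest score of T4 and T5 (0.692), had the highest CCD4a of its group (1.85 CPM, against 1.22 and 1.24 CPM). At T5 16.4% of all genes were called in the averaged contrast and 12.3% in H over C, and 1 of 5 members was called in each. The other 4 members at T5 had mean log2 fold changes of 0.33 (DXS1), 0.05 (PSY1), 0.18 (PSY2) and 0.29 (CCD1), none of them called.

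During the heat, PSY2 was lower in the stressed berries. At T2 it had 40.8, 52.6 and 41.8 CPM in FH and 52.3, 31.7 and 43.4 CPM in H berries, against 65.4, 86.4 and 49.5 CPM in F and 66.4, 74.2 and 85.2 CPM in C berries. The H and C libraries did not overlap, nor did those of 28% of all genes, and 1 F library lay within the FH range. The averaged log2 fold change was -0.70 ± 0.24 (adjusted p = 0.021, a 1.63-fold lower level), in a contrast where 18.1% of all genes were called. Without H replicate 2 it was -0.61 (adjusted p = 0.067), and without F replicate 2 it was -0.59 (adjusted p = 0.075). Taken alone, neither H over C (-0.83, adjusted p = 0.078) nor FH over F (-0.58, adjusted p = 0.32) was called. At T3 the H libraries (111, 89.7 and 77.1 CPM) were above the C libraries (66, 60.1 and 57.9 CPM), as 25.1% of all genes were without overlap, with a difference of 0.59 that was not called (adjusted p = 0.41).

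Few other summer contrasts were called. Of the 50 tests of H over C and FH over F at T1 to T5, 1 was called, where 4.64% of all tests were, and of the 25 averaged tests 2 were called, where 8.39% were. In the averaged contrast at T4, 4 of 5 members and 3447 of 19625 genes had an unadjusted p under 0.05. No member was called there, where 0.81% of all genes were. The log2 fold changes were 0.84 (DXS1), 0.97 (PSY1), 0.01 (PSY2), 0.31 (CCD1) and -0.72 (CCD4a). DXS1 was called without FH replicate 3 (adjusted p = 0.041) or F replicate 3 (0.048). Its change ranged between 0.18 and 1.06 when 1 library was left out. The tests of whether the summer effect depended on earlier flooding called 0 of 25 with edgeR and 0 with DESeq2, with 0 at an unadjusted p under 0.05, where 0.106% of all tests were called. At T1, under drought and before the heating, all 5 members had positive log2 fold changes in H over C (median 0.35) and in FH over F (median 0.55). The medians over all genes were 0.01 and 0.04. None was called by edgeR or by DESeq2, where 0.408% of all genes were called in H over C and 0.0051% in FH over F, and 1 member in each contrast had an unadjusted p under 0.05. DXS1 at T1 had 78.7, 102 and 57.2 CPM in FH berries, against 46.2, 30.3 and 38.8 CPM in F berries, and 125, 110 and 117 CPM in H berries, against 94.7, 104 and 94.2 CPM in C berries. Neither pair overlapped, which held for 17.5% of all genes in FH over F and 16.1% in H over C, and the averaged difference was 0.65 (95% interval 0.03 to 1.27, adjusted p = 0.27). At T3 all 5 members had positive values in both contrasts, with medians of 0.59 in H over C and 0.15 in FH over F. The medians over all genes were -0.03 and 0.03. At T3 0 were called by edgeR and 0 by DESeq2, where 2.91% of all genes were called in FH over F and 0.168% in H over C. At an unadjusted p under 0.05 there was 1 member in FH over F and 0 in H over C. The share of all genes with a positive sign was not computed at T1 or T3, and DXS1 and PSY1 varied together, so their signs are not separate observations.

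**Figure D4:**
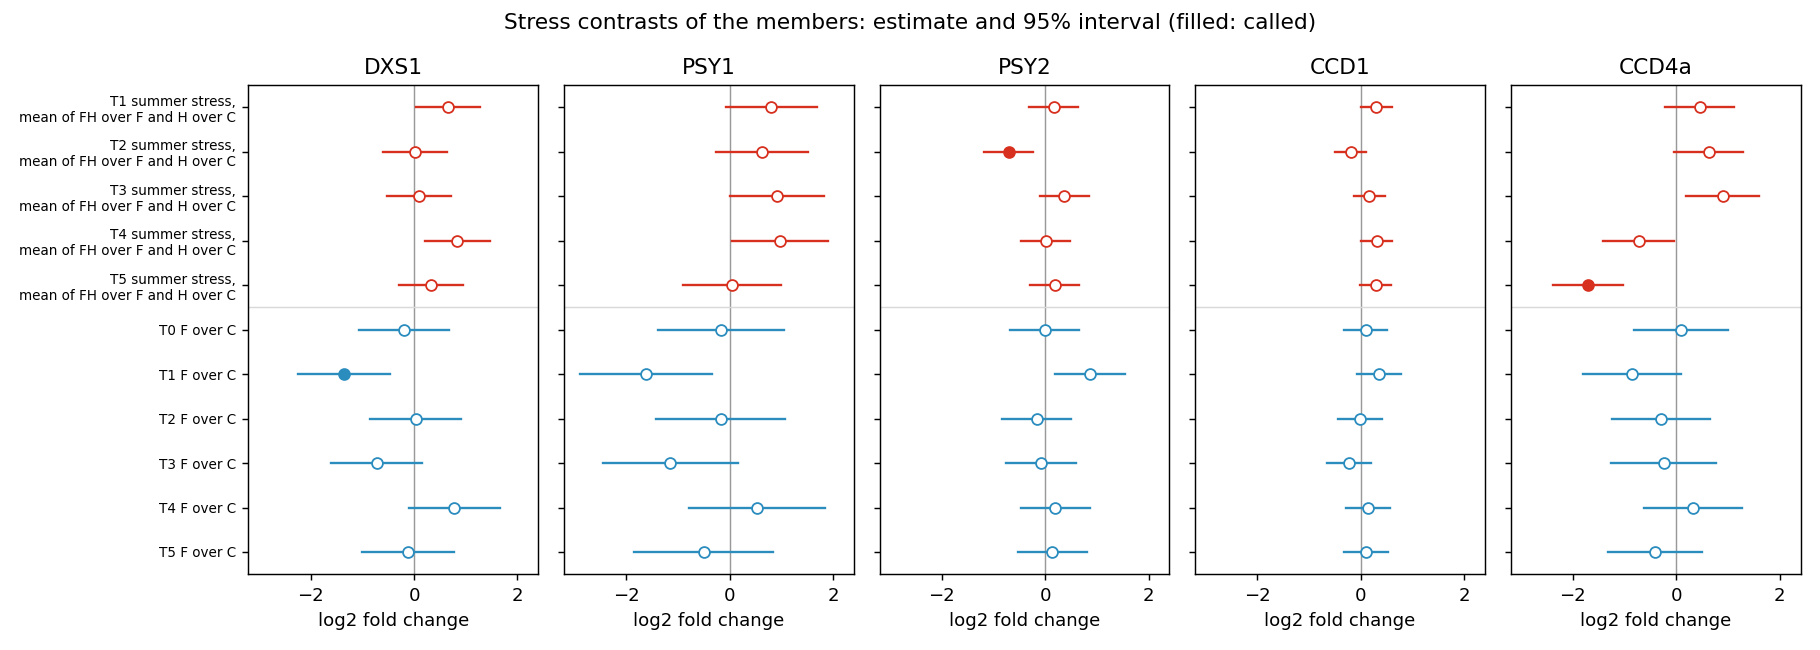
Log2 fold changes of the 5 members for the summer stress averaged over FH over F and H over C (red, T1 to T5) and for spring flooding as F over C (blue, T0 to T5), with bars for the 95% interval and filled points for calls. The filled points are PSY2 at T2 and CCD4a at T5 for the summer stress, and DXS1 at T1 for flooding.

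The 1 member called for spring flooding was DXS1, at T1. DXS1 had 46.2, 30.3 and 38.8 CPM in F berries, against 94.7, 104 and 94.2 CPM in C berries. The libraries did not overlap, and DXS1 was 2.54-fold lower in F (log2 fold change -1.35 ± 0.44, adjusted p = 0.027), in a contrast where 14.6% of all genes were called and 45.9% had no overlap. Leaving out any 1 library gave -1.5 to -1.20. The call was lost without C replicate 1 or 2 or F replicate 2 or 3, with adjusted p up to 0.12, and with the replicate number as a block (0.052). PSY1 had 7.10, 7.72 and 10.7 CPM in F, against 23.1, 29.7 and 25.6 CPM in C berries, also without overlap. Its difference of -1.62 ± 0.63 was not called by edgeR (adjusted p = 0.063) but was with DESeq2 (0.039) and with the libraries of T1 alone (0.0059). PSY2 had 53.5, 43.5 and 33.7 CPM in F, against 21.7, 29.3 and 20.7 CPM in C berries and again the groups did not overlap. Its difference of 0.87 ± 0.34, opposite in sign to that of PSY1, had an adjusted p of 0.062 with edgeR and 0.049 with DESeq2. CCD1 and CCD4a differed by 0.35 and -0.85, with libraries that overlapped.

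F berries were further along the ripening line at T1, with a score of 0.59 ± 0.058, against 0.277 ± 0.045 in C berries, and no library of one group reached the other. ACO1 (VIT_11s0016g02380), an ethylene-forming oxidase gene, was at 36.9 ± 18.8 CPM in F and 2.36 ± 2.55 CPM in C berries at T1. The part of ripening stage in the differences of DXS1, PSY1 and PSY2 was not tested. Among stressed berries at T1, DXS1 had 78.7, 102 and 57.2 CPM in FH, against 125, 110 and 117 CPM in H berries, without overlap (15.4% of all genes), and the difference of -0.56 (95% interval -1.44 to 0.31) was not called. PSY2 in FH over H gave 0.62 (adjusted p = 0.33), and 1.26 (adjusted p = 0.018) without H replicate 3, its highest H library. The scores there were 0.469 ± 0.108 in FH and 0.32 ± 0.036 in H berries.

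At the other times no member was called for flooding by edgeR with all libraries. Over all 55 tests of F over C and FH over H, 1 was called by edgeR and 4 by DESeq2, and 5 had an unadjusted p under 0.05, where 1.52% of all tests were called. Of the 4 calls by DESeq2, 3 were at T1 and 1 was PSY1 in FH over H at T4 (log2 fold change 2.18, adjusted p = 0.041). With edgeR that PSY1 difference was 2.17 (adjusted p = 0.14), and it was called without FH replicate 1 (2.66, adjusted p = 0.019) or 3 (2.68, adjusted p = 0.025). FH replicate 2 held 45.8 CPM of PSY1 there, against 3.34 and 2.57 CPM in the other FH libraries, and leaving out 1 library at a time gave -0.36 to 2.71. At T2, DXS1 averaged 64.2 ± 7.44 CPM in F and 62.9 ± 25.8 CPM in C berries. PSY1 at T3 had 7.68, 9.58 and 4.27 CPM in FH, against 19.2, 13.2 and 28.1 CPM in H berries, with no overlap (23.9% of all genes) and a difference of -1.49 that was not called (adjusted p = 0.18).

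Against C berries, FH berries gave 3 calls in 25 tests, where 6.57% of all tests were called: the low CCD4a at T5, and DXS1 and PSY1 at T4, where 6.07% of all genes were called. The T4 calls rested on 1 library. DXS1 had 38.2, 177 and 24.7 CPM in FH, against 28.2, 27.8 and 23.6 CPM in C berries (log2 fold change 1.59, adjusted p = 0.026). PSY1 had 3.34, 45.8 and 2.57 CPM in FH, against 4.07, 3.12 and 3.08 CPM in C berries (2.32, adjusted p = 0.027). FH replicate 2 held the high value of both genes, and of CCD1 (878 CPM, against 466 and 497 CPM in the other FH libraries). This library differed beyond the members, with the lowest TMM factor of the series (0.785). Its ACO1 was at 2.16 CPM, against 77.6 and 92.0 CPM in the other FH libraries. Without this library the differences were 0.26 for DXS1 (adjusted p = 0.9) and -0.19 for PSY1 (adjusted p = 0.97). The calls were also lost without any 1 of the 3 C libraries, with adjusted p up to 0.096 for DXS1 and 0.11 for PSY1. The falls of DXS1 and PSY1 in FH berries between T4 and T5, -1.65 and -2.66, rested on the same library and were -0.30 and -0.12 without it, in a step that called 8.1% of all genes. Without FH replicate 2 of T5 their adjusted p was 0.14 and 0.11.

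Across all libraries, DXS1 and PSY1 followed the ripening score closely and the others less so. The correlation of the log2 level with the score over the 66 libraries was -0.91 for DXS1, -0.89 for PSY1, 0.36 for PSY2, -0.11 for CCD1 and -0.41 for CCD4a. Within groups, where time and treatment were removed, it was -0.77 for DXS1 and -0.76 for PSY1, and within the groups of T4 and T5 -0.91 and -0.90. CCD1 had -0.81 within those late groups and -0.14 within the groups of T1 to T3. The late values include FH replicate 2 of T4, which had the lowest score of T4 and T5 (0.692). It also had the highest DXS1, PSY1 and CCD1 (878 CPM) of those times, and the correlations without it were not computed. The score was built without the members, but from genes called between T0 and T5 in C berries. DXS1 and PSY1 were called in that contrast and the other members were not. The split of the members over all 66 libraries was therefore largely set by that choice. All genes of a library also share its depth and normalization. These values carry no test.

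**Figure D5:**
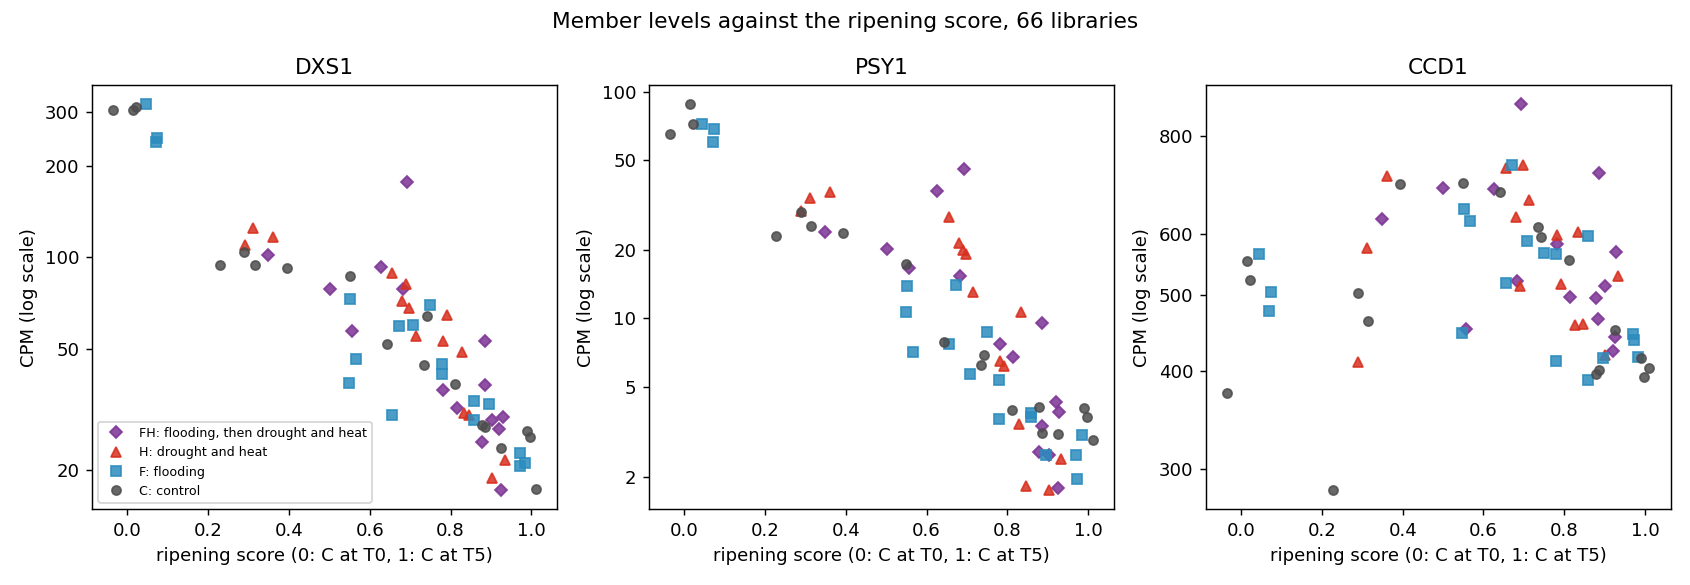
Levels of DXS1, PSY1 and CCD1 in CPM (log axes) against the ripening score of each of the 66 libraries, with symbols for the treatments. DXS1 and PSY1 fall along the score in all treatments (correlations -0.91 and -0.89), and CCD1 shows no single trend (-0.11).

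The balance between time, treatment and single libraries differed among the members. Over T1 to T5, time accounted for 56.6% of the sum of squares of log2 levels for PSY1, 46.5% for DXS1, 42.6% for PSY2, 27.4% for CCD1 and 25.5% for CCD4a, and the median over all genes tested was 34.1%. The combination of time and treatment took 40% for CCD4a, the member with the late stress difference, and 10.5 to 21.2% for the others (median of all genes 19.6%). Treatment by itself took 1.68 to 7.48%. The spread between replicates took 45.8% for CCD1 and 26 to 34.5% for the other members.

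Other genes fed by the same isoprenoid pools were counted from a list of 10 that the study names, most of them for hormones, so the list was chosen on these samples and its direction is not independent evidence. Of these, 8 passed the filter, and a gibberellin 3-oxidase gene and a terpene cyclase gene did not. Between T0 and T5 in C berries, 5 of the 8 rose and 0 fell, and of the members 0 rose and 2 fell, where 56.6% of all genes were called. Of the 4 genes that the study names NCED, 3 rose over the step at which PSY2 rose. Those names are the study's and were not checked against a sequence, so cleavage toward abscisic acid is not established here for each of them. At T2, relative to T1 in C berries, NCED4 rose by 2.57, NCED5 by 3.37 and NCED6 by 3.74 on the log2 scale. CYP707A3, an abscisic acid hydroxylase gene, rose by 3.44. NCED6 was near the floor, with 0 to 36 counts per library and a mean of 0.558 CPM, so its fold is imprecise. The median of the 8 genes was 2.42, against -0.03 over all genes, of which 19.2% were called in that step. With flooding at T1, NCED4 (1.79), NCED5 (2.23) and CYP707A3 (2.04) were higher in F than in C berries, and the median of the list was 1.92, against -0.05 over all genes.

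Under the summer stress, 2 of the 8 were higher and 2 lower at T2, where 18.1% of all genes were called. GA20ox, of gibberellin synthesis, rose by 2.37, and GA2ox (VIT_10s0003g03490), of gibberellin breakdown, by 2.63 on the log2 scale. Another GA2ox (VIT_10s0116g00410) fell by 4.90 and NCED3 by 1.79. Over the series, counts per library ran down to 0 for GA20ox (mean 1.62 CPM) and GA2ox VIT_10s0003g03490. They ran down to 2 for GA2ox VIT_10s0116g00410, so the folds of these gibberellin genes are imprecise. At T5, where 16.4% of all genes were called, the GA2ox genes had turned, with GA2ox VIT_10s0003g03490 lower (-2.44) and GA2ox VIT_10s0116g00410 higher (1.41) in the stressed berries. NCED4 (VIT_02s0087g00930), whose locus number lies close to that of CCD4a on chromosome 2, was not low there. The name NCED4 is the study's. Whether this gene belongs with the NCED genes or is a CCD4 relative of CCD4a could not be checked without a sequence. At T5 NCED4 averaged 71.2 CPM in FH and 47.6 CPM in F berries, and 130 CPM (76.9, 45.5 and 267 CPM) in H and 52.1 CPM in C berries, with an averaged log2 fold change of 0.95 that was not called (adjusted p = 0.068).

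The genes most like each member were sought over the 22 group means among genes with at least 5 CPM on average. The closest to DXS1 was VIT_14s0128g00050 (Pearson r 0.978) and the closest to PSY1 was VIT_02s0025g04710 (r 0.973). Both fell between T0 and T5 in C berries, by 2.76 and 2.49 on the log2 scale. DXS1 had 43 genes with r over 0.95 and PSY1 had 33, where PSY2, CCD1 and CCD4a had 0, with a closest gene at r 0.93, 0.932 and 0.878. The table gives these genes no name.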

How the data were processed

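The authors aligned 75-base stranded single-end reads with TopHat to the Pinot Noir reference genome and deposited whole-number read counts per gene row, from uniquely mapped reads and not normalized. The paper describes no trimming and Bedtools coverage, whereas the submitters' processing notes name Trimmomatic 0.39 and featureCounts. Versions of the other programs were not stated. Berries of 5 vines per treatment and time were sampled, and 3 libraries per group were analysed as separate samples.

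The deposited counts entered a model with 22 group means and a shared spread (edgeR 4.0.16 in R 4.3.3, quasi-likelihood test, robust, TMM factors), after removal of genes that reached 0.5 CPM in fewer than 3 libraries. A call needed an adjusted p (Benjamini-Hochberg, across the genes tested) below 0.05 together with a fold of 1.5 or more, or the p alone for differences between effects. Standard errors and 95% intervals come from the test statistic. The ripening score used log2(CPM + 4). All 5 members were named, with the listed pathway genes, 2 check genes (ACO1 and the heat shock gene HSP101) and 1 most similar gene per member, and the members and lists were chosen with earlier results of these data known. HSP101 averaged 1290 ± 746 CPM in FH and 460 ± 237 CPM in F berries, and 992 ± 418 CPM in H and 643 ± 441 CPM in C berries at T2 (SD, n = 3 each), and was not called there. At T1, before the heating, HSP101 had 271, 2298 and 294 CPM in FH and 406, 236 and 692 CPM in F berries. It had 1445, 451 and 2355 CPM in H and 1021, 1288 and 1160 CPM in C berries. High HSP101 was thus not confined to heated berries.

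The alternatives were DESeq2 1.42.0, RLE normalization, no filter, only the time points compared, the replicate number as a block, summed rows of one gene ID, total counts without TMM, and leaving out each library. T5 F replicates 1 and 2 were the most alike (chi-square per degree of freedom 1.91, next 9.41), above sampling noise, and were kept apart. Whether they came from separate vines could not be checked. All tests and SDs of F at T5 treat them as separate, so the spread there may be too small. The fit was tested on simulated data.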

Additional observations from a re-analysis of the deposited data

How the results depend on the processing

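Of the 29 called results of members, all 29 kept direction and call with DESeq2, RLE normalization and summed rows, 28 without the filter, 23 with the replicate block and 22 with only the time points compared. Calls lost there include DXS1 in C between T3 and T4 (adjusted p = 0.052 without the filter) and DXS1 and PSY1 in FH over C at T4 (0.28 and 0.29 with only the time points compared). The summer stress calls numbered 1, and 2 with DESeq2, RLE normalization, summed rows or only the time points compared. The flooding calls numbered 1, and 4 with DESeq2, 2 with only the time points compared and 0 with the replicate block. The calls of FH over C numbered 3, and 1 with the replicate block or only the time points compared. Total counts without TMM moved the median of all genes by up to 0.28 in size (H berries, T2 over T1, -0.28), and left the order of the members by their seasonal change in C as it was.

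Leaving out 1 library gave 1 to 2 summer stress calls, 1 to 3 averaged summer calls, 0 to 2 flooding calls, 1 to 4 FH over C calls, 0 for differences between effects, 11 to 14 over consecutive times and 9 to 10 over the season. Of the 29 called results 17 kept their call in every such fit. PSY1 in FH over C at T4 ranged between -0.19 (without FH replicate 2, a turned direction) and 2.84 on the log2 scale. Over the series the replicate numbers did not pair the libraries, with correlated deviations over 0.1 in 22 of 93 same-numbered pairs (median -0.01). All 3 pairs passed 0.1 in 3 of 31 group pairs (F and C at T0, F and C at T2, FH and C at T2), where no member was called with or without the replicate block. The replicate block reduced the calls over consecutive times to 10, against 13. Precision is limited by 3 libraries per group, and for CCD4a also by low counts.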

Other observations

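Beside its high DXS1, PSY1 and CCD1, FH replicate 2 of T4 held 34.1 CPM of PSY2 and 1.85 CPM of CCD4a, against 42.7 and 43.6 CPM of PSY2 and 1.22 and 1.24 CPM of CCD4a in the other FH libraries of T4.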
